A study of Homo sapiens with 14 samples.

Results

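A set of 10539 genomic regions carried a DRIP-seq peak in every one of 8 Nalm-6 libraries, that is, in untreated DNA and in DNA digested with RNase H, in both SF3B1 genotypes. They were found by merging the peaks of all 8 lists on chromosomes 1 to 22 and X into 479021 regions and keeping those that met a peak of each list, 2.20% of the total. DRIP-seq measured DNA recovered with the S9.6 antibody from Nalm-6, an established human B cell precursor leukemia line, in an isogenic pair of lines: SF3B1 K700K (WT) and SF3B1 K700E (MT), an altered form of a core splicing factor. In each genotype 2 libraries came from untreated DNA (UNT) and 2 from RNase H-treated DNA (RNH1), after the DNA of all groups had been cut with HindIII, EcoRI, BsrGI, XbaI and SspI. Each genotype is a single cell line, and nothing states that libraries of a group came from separate cultures, so the spread between them may be technical.

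An R-loop forms when a transcript pairs with its DNA template and displaces the other strand. RNase H degrades the RNA of such hybrids, so digestion before the pull-down serves as the negative control of DRIP, and a peak that persists after it is commonly set aside. The S9.6 antibody is also known to bind double-stranded RNA and some sequences more than others, and stretches of purines on one strand facing pyrimidines on the other are known to form stable hybrids and triple-stranded DNA.

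The lists differed widely in length, from 34857 peaks in WT RNH1 replicate 1 to 295970 in MT UNT replicate 2, and the background pileup, the number of overlapping fragments expected by the peak caller, from 1.62 in WT RNH1 replicate 1 to 4.35 in MT UNT replicate 2. Members held 31.7% of the peaks of WT RNH1 replicate 1 and 3.81% to 14.3% of those of the other 7 libraries. This shallowest library also set most of the limit of the group: of 12300 regions with a peak in 7 lists, 8020 (65.2%) lacked it only there, and 18558 regions had a peak in all lists when it was left out.

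Some sequence features were more frequent in members than in all regions. Windows of 6 members are printed here from the + strand of GRCh38. They were chosen among those with the highest fold enrichment and those with the largest differences between treatments, so they are extremes by rank. They do not show the typical member. First are regions with the highest fold enrichment in their lowest library. In the ribosomal DNA spacer of chromosome 21, at chr21:8234250-8234549, capitals mark runs of 15 or more bases that are all pyrimidines.

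Ribosomal DNA spacer: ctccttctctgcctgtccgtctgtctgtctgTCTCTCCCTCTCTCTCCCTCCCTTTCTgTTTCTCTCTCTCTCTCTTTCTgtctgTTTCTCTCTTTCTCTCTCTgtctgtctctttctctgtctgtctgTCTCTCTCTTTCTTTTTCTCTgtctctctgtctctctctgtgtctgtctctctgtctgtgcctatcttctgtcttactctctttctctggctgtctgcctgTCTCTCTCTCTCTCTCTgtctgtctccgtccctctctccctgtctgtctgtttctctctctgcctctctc

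In the next pair of windows, chr4:49657535-49657684 and chr4:49149379-49149528, which lie in arrays of a 5-base repeat near the centromere of chromosome 4, capitals mark copies of GAATG or of its reverse complement CATTC.

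Array, GAATG strand: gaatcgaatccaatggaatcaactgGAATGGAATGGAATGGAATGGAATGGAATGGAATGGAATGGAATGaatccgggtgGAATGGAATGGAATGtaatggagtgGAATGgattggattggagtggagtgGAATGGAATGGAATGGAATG

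Array, CATTC strand: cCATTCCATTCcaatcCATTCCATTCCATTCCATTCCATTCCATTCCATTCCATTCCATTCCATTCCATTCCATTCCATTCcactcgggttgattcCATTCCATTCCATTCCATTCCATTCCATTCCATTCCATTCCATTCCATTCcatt

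At chr20:6657518-6657817, in an intergenic region much higher after RNH1, capitals again mark runs of 15 or more purines or pyrimidines.

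Chromosome 20, intergenic: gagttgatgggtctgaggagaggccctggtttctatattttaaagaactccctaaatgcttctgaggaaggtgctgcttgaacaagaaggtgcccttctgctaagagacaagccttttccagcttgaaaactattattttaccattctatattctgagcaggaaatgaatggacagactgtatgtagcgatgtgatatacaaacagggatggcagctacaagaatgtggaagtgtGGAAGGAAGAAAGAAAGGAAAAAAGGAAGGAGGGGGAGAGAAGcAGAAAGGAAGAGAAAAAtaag

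Last are 2 windows of regions that were lowest after RNH1 relative to untreated DNA. Capitals mark a run of 15 or more pyrimidines at chr5:38289156-38289455 (EGFLAM), and TAATTC, the reverse complement of GAATTA, at chr17:76623647-76623946 (SNHG16). Each window is marked for 1 feature only. Left unmarked are a TAATTC in the EGFLAM window and a run of 17 pyrimidines in the SNHG16 window.

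EGFLAM: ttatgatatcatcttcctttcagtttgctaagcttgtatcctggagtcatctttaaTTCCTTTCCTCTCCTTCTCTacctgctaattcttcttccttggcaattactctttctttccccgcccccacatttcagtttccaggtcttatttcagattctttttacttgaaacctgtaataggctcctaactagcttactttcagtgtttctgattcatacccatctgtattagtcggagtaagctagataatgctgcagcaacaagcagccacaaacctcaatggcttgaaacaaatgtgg

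SNHG16: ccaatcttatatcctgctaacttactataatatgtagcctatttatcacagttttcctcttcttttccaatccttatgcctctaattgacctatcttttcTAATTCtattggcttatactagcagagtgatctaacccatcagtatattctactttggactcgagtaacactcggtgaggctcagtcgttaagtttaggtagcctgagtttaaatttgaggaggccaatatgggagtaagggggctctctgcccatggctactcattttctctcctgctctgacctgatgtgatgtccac

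Members were wide merged regions of moderate height. Their median width was 1011 bp (25th to 75th percentile, 701 to 1415) against 482 bp for all merged regions, and they covered 11.9 Mb in all. The width of a merged region rose with the number of lists, with a median of 339 bp at 1 list, 906 bp at 6 and 992 bp at 7. Single peaks in members had median widths of 475 to 682 bp by library, against 381 to 449 bp for all peaks. In 8348 (79.2%) each list held a single peak, and in 9462 (89.8%) at least 1 base lay under a peak of all 8 lists. The other 1077 were joined only through overlapping neighbours, with no base common to all lists.

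Fold enrichment is the pileup at the summit over the background the peak caller took for that place. Peaks were called on a q-value that rests on the same pileup and background, so members were in effect selected on a related value. Fold enrichment is therefore given as a description. Its median over members was 5.76 and 6.06 in WT UNT, 5.77 and 6.93 in WT RNH1, 6.06 and 6.54 in MT UNT and 7.90 and 7.52 in MT RNH1. The other peaks of the same libraries had medians of 4.27 to 4.94, so every library was higher over members. In the plot of levels both MT RNH1 libraries stood above the remaining 6. The lowest of a member's 8 values had a median of 4.34 and ran from 2.25 to 26.2, and it was at least 4 in 6704 members (63.6%) and at least 10 in 100. Just outside the rule, in regions with 7 lists, the lowest of the 7 values had a median of 3.78.

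**Figure D1:**
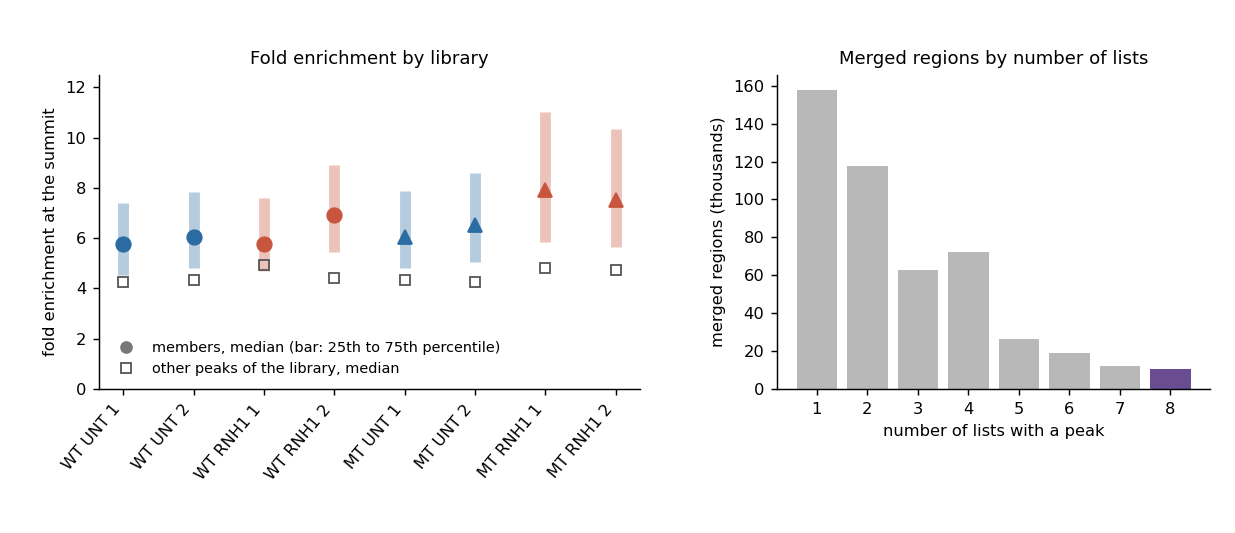
Left, fold enrichment at the summit (linear axis from 0) by library, with the median over the 10539 members as filled symbols (circles WT, triangles MT, blue UNT, red RNH1), the 25th to 75th percentile as bars, and the median of the other peaks as open squares. Right, the number of merged regions (in units of 1000) by the number of lists with a peak, from 157916 regions in 1 list to the 10539 members in all 8.

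The 5 members just inside the rule had a lowest fold enrichment between 2.25 and 2.35. At chr19:40109917-40110730 fold enrichment was 5.75 and 7.34 in WT UNT, 6.49 and 7.26 in WT RNH1, 3.54 and 4.08 in MT UNT and 2.63 and 2.25 in MT RNH1, and only 4 bp were common to all lists. All 4 WT values lay above all 4 MT values there. Arrays followed at chr10:41867254-41871271 and at chr11:2049067-2051889, the latter 44514 bp from the imprinted RNA gene H19. The rest were an intron of the interleukin 1 receptor gene IL1R1 at chr2:102160291-102161424 and chr19:45851731-45853044 in SYMPK, which encodes a scaffold of mRNA 3′ end processing. The array on chromosome 11 and the SYMPK region had no base common to all lists. These low ratios did not always rest on few fragments, since the pileup in the library with the lowest ratio was 69 at chr11:2049067-2051889 and 105 at chr10:41867254-41871271.

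Tandem repeats carried the highest values. Of the 10 members with the highest lowest-of-8 fold enrichment, 7 were arrays of the pentamer CATTC, the unit of human satellites II and III, 1 was the ribosomal DNA spacer and 1 lay in SLC30A8, a zinc transporter gene. All 5 longest members were such arrays, up to 21429 bp at chr4:49091318-49112746.

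The ribosomal DNA region, chr21:8234123-8234831, began 14821 bp after the end of RNA45SN2, a copy of the precursor gene of 3 ribosomal RNAs, in the spacer that follows it. Its fold enrichment was 26.2 and 29 in WT UNT, 35 and 29.2 in WT RNH1, 27.8 and 26.2 in MT UNT and 29.3 and 29.4 in MT RNH1, so the RNH1 values lay just above the untreated ones and the mean log2 change after RNH1 was 0.17 ± 0.18 (SD, n = 4 pairs). A pair is an untreated and an RNH1 library of 1 genotype with the same number, set side by side for the ratio. The paper compared paired treated and untreated samples, but nothing states that the number gives those pairs. The pileup that these ratios and the p-values of the peaks imply differed more. It was 169 and 297 fragments in WT UNT against 788 and 1099 in WT RNH1, and 194 and 201 in MT UNT against 1087 and 705 in MT RNH1. All 4 RNH1 libraries lay above all 4 untreated ones. Relative to the background pileup of each library, with 1 added to both, the log2 change was 2.56 ± 0.27 (SD, n = 4 pairs). Of the other copies of the precursor gene that RefSeq (GRCh38.p14) places on chromosome 21, RNA45SN1 had no merged region in the gene or in the 30 kb after it and RNA45SN3 had 1, which was not a member. At the default settings that the methods name, BWA-MEM places a read with several equal matches at 1 of them, and whether such reads were filtered later is not given in the sources used here.

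Arrays of the pentamer, defined as at least 2 copies of CATTC or GAATG per 100 bp, made up 87 members (0.826%) on 18 chromosomes, with 13 on chromosome 10, 11 each on chromosomes 4 and 16 and 9 on chromosome 20. Their share was 0.0785% to 0.148% among regions found in 1 to 7 lists. Their median width was 2485 bp, and they covered 270 kb. Of 91 arrays with a peak in all 4 untreated lists, 87 (95.6%) also had one in all 4 RNH1 lists and 0 had none, whereas among all 42800 such regions 24.6% were members and 16.6% had no RNH1 peak. Without WT RNH1 replicate 1 the shares of members were 97.8% of arrays and 43.4% of all such regions. Since membership is the rule, these shares are descriptions. Arrays also had high untreated fold enrichment. In the lowest of 5 equal classes by that value 77.8% of arrays were members, and in each of the other 4 classes 100%, on 7 to 47 arrays each, against 10.3% to 46.8% of all regions in the same classes.

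Fold enrichment of the typical array varied little between libraries, as in these examples with very high values. At chr4:49655657-49657959 it was 25.8 and 27.5 in WT UNT, 26.8 and 24.6 in WT RNH1, 26.9 and 25 in MT UNT and 24.7 and 24.8 in MT RNH1. At chr5:49601196-49602951 it was 23.8 and 25.2, 28.4 and 24.3, 24.9 and 23.5, and 24.5 and 24.1 in the same order. The treatments overlapped at both arrays except in MT on chromosome 4, where both RNH1 values lay just below both untreated values. At chr16:34585673-34588625 it was 24.2 and 24.8 in WT UNT, 25.4 and 21.7 in WT RNH1, 19.8 and 19.1 in MT UNT and 19.999 and 19.9 in MT RNH1, with every WT value above every MT value. Over the 87 arrays the median SD of log2 fold enrichment across libraries was 0.18, against 0.38 for the other members.

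The difference of arrays between treatments depended on what the summit was set against. On fold enrichment the median log2 change was 0.26 and 0.04 in the WT pairs and 0.06 and 0.09 in the MT pairs, 0.11 ± 0.10 (SD, n = 4 pairs), and it turned to −0.05 after division by the median of all peaks of each library. The summit pileup itself had medians of 49 and 63 in WT UNT, 84 and 145 in WT RNH1, 87 and 100 in MT UNT and 218 and 188 in MT RNH1, although the background pileup was lower after RNH1 in both WT libraries and in both MT libraries than in the untreated ones. Set against the background of the library rather than of the place, the pileup of arrays was higher after RNH1 by 1.34 and 1.38 in the WT pairs and by 1.54 and 1.37 in the MT pairs on the log2 scale, 1.41 ± 0.09 (SD, n = 4 pairs), and it was higher in all 4 pairs in 81 of 87 arrays. The local background that the peak caller used was higher too, by 0.98 to 1.47 on the same scale. For the members without arrays the pileup over library background gave 0.33 ± 0.26, with −0.0022 and 0.29 in the WT pairs and 0.64 and 0.39 in the MT pairs. It was higher in all 4 pairs in 4052 of these 10452 members (38.8%). At chr5:49601196-49602951, for example, the implied summit pileup was 1684 and 2394 in WT UNT, 3441 and 5116 in WT RNH1, 2681 and 2782 in MT UNT and 6534 and 5099 in MT RNH1, with all RNH1 values above all untreated ones. This comparison was added after the data were seen.

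**Figure D2:**
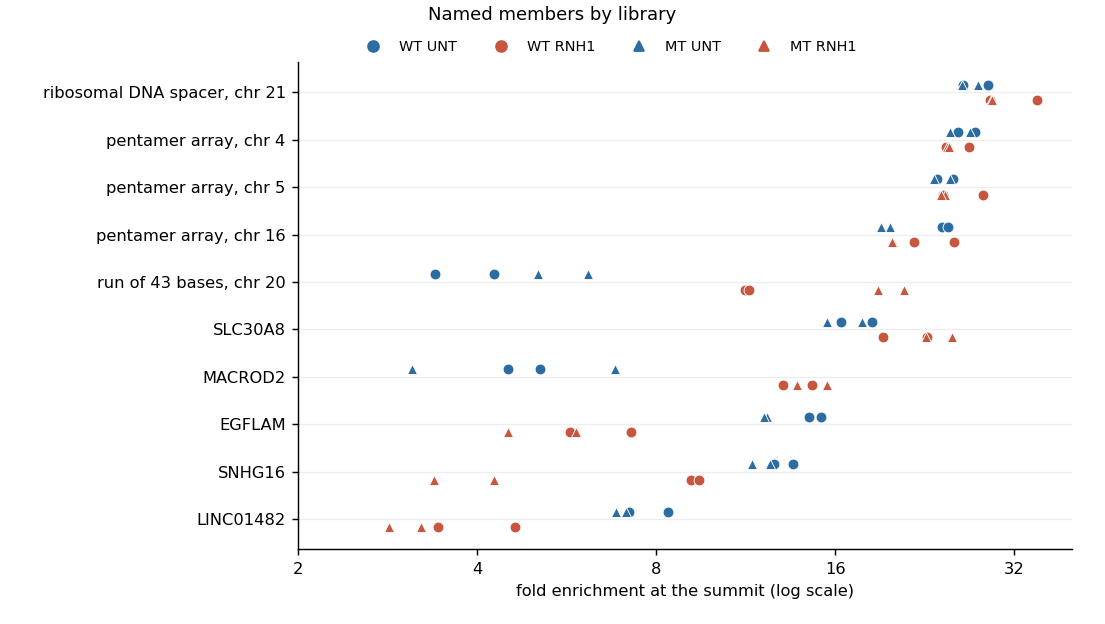
Fold enrichment at the summit (horizontal, log scale) in each of the 8 libraries for named members, with untreated libraries in blue and RNH1-treated libraries in red, circles for WT and triangles for MT. Values of the treatments lie close together in the ribosomal DNA spacer and the arrays, are higher in red at SLC30A8, at the region with a run of 43 bases and at MACROD2, and lower in red at EGFLAM, LINC01482 and SNHG16.

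Alpha satellite, the repeat of active centromeres, has a unit much longer than a pentamer. A repeat of that period was found in 290 merged regions, of which 5 (1.72%) were members, and of 20 with a peak in all 4 untreated lists 5 were members (25%) and 6 (30%) had no RNH1 peak. Their share among the regions with all 4 untreated peaks was thus near the 24.6% of all such regions.

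Long runs of purines or pyrimidines were more frequent in members than in all regions, although most members had none. A run of at least 20 bases within 250 bp of the median summit was present in 15.7% of members and 10.7% of all regions. A run of at least 30 bases was present in 4.74% of members, 2.70% of all regions, 1.04% of the 7084 regions with all 4 untreated and no RNH1 peak, and 6.97% of the 69157 regions found only after RNH1. Of regions with all 4 untreated peaks, the share that were members was 22% where the longest run was under 10 bases, 31.9% at 20 to 29 bases, 45.5% at 30 to 49 bases and 72.0% (139 of 193) at 50 bases or more. The order was the same within classes of untreated fold enrichment, with 33.2% against 9.81% for runs of at least 30 bases and shorter ones in the lowest class and 74.5% against 46.1% in the highest. Without WT RNH1 replicate 1 the shares were 80.3% for runs of 50 or more and 39.6% for runs under 10.

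The difference in fold enrichment between treatments was larger at long runs in all 4 pairs. In the 1000 members with the shortest runs the median log2 change was 0.06 and 0.15 in the WT pairs and 0.31 and 0.18 in the MT pairs, 0.17 ± 0.11 (SD, n = 4 pairs). In the 139 with runs of at least 50 it was 0.60 and 0.57 in the WT pairs and 0.82 and 0.62 in the MT pairs, 0.65 ± 0.11. Every pair of the second class lay above every pair of the first, as in the plot by run length. On summit pileup over the background of the library the change was 1.20 ± 0.26 for runs of at least 50 (1.00 and 1.12 in the WT pairs, 1.58 and 1.12 in the MT pairs) and 0.35 ± 0.26 for the shortest runs, so the members with long runs were also higher on this measure. Regions that were not members showed a like order on fold enrichment, with 0.58 and 0.46 in the WT pairs and 0.66 and 0.59 in the MT pairs for runs of at least 50.

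**Figure D3:**
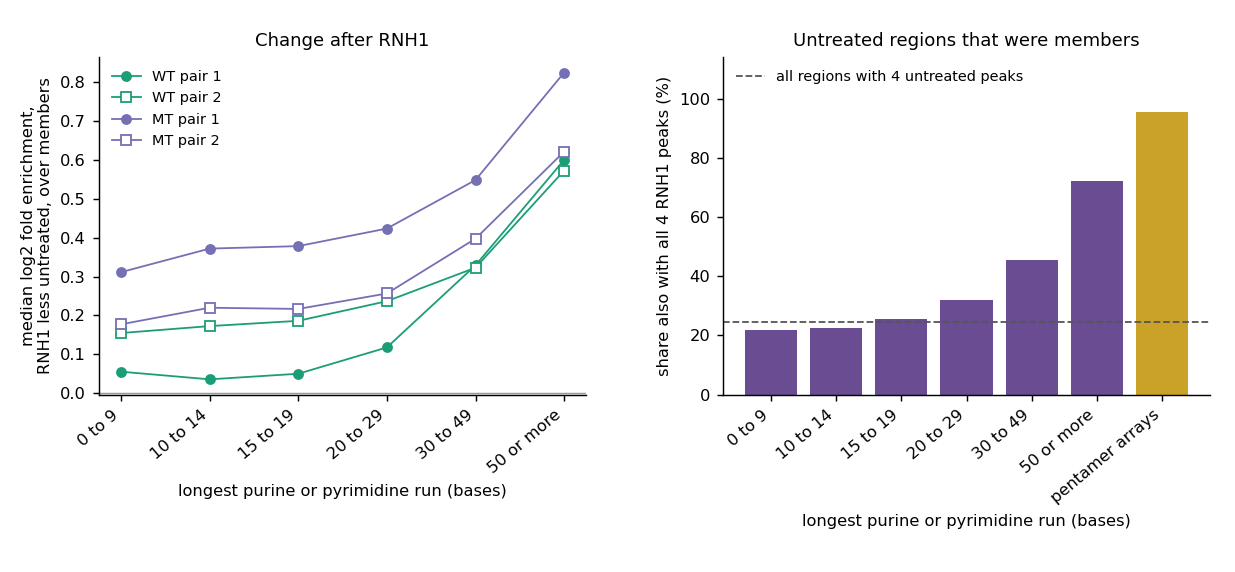
Left, median log2 fold enrichment over members, RNH1 less untreated, for each pair of libraries (green WT, purple MT, filled pair 1, open pair 2) by the longest run of purines or pyrimidines in bases, which ends between 0.57 and 0.82 for runs of 50 or more. Right, the share of regions with 4 untreated peaks that also had 4 RNH1 peaks, from 22% at runs of 0 to 9 bases to 72.0% at 50 or more and 95.6% in pentamer arrays (yellow), with 24.6% for all such regions as a dashed line.

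The summit was seldom inside the run. Of 500 members with a run of at least 30 bases the summit fell inside the run in 18 (3.6%), and the median distance was 146 bp (25th to 75th percentile, 90.5 to 190). Runs were sought only within 250 bp of the median summit, which limits this distance, and no comparison with random placement was made. The share of bases in such runs was highest at 450 to 500 bp from untreated summits (0.873%), outside this window. From RNH1 summits it was highest at 200 to 250 bp (0.967%). In members within genes the purines were on the sense strand in 381 of 927 runs of at least 20 bases (41.1%), against 41.8% over all merged regions.

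Of the 5 members with the largest increase after RNH1, 4 had runs of 39 to 120 bases. At chr20:6657455-6658036 (run of 43 bases) fold enrichment was 4.26 and 3.39 in WT UNT, 11.3 and 11.4 in WT RNH1, 6.13 and 5.07 in MT UNT and 20.9 and 18.8 in MT RNH1. The mean log2 change there was 1.70 ± 0.21 (SD, n = 4 pairs). An intron of MACROD2 (chr20:14962721-14963719, run of 39 bases), a gene of an enzyme that removes ADP-ribose, had 4.51 and 5.09, 13.1 and 14.6, 3.10 and 6.81, and 15.5 and 13.8 in the same order, a change of 1.60 ± 0.54. The intergenic region chr20:40995840-40996376, 32445 bp from the DNA topoisomerase gene TOP1, had 3.905 and 3.99, 9.12 and 10.2, 2.71 and 3.61, and 10.5 and 11.3, although its longest run had 15 bases. Treatments did not overlap at any of the 3. SLC30A8 (chr8:117137199-117137718) had high values in every library, 16.4 and 18.4, 19.2 and 22.8, 15.5 and 17.8, and 25.2 and 22.8 in the same order, and they too were higher after RNH1 without overlap.

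Decreases were smaller and fewer. The mean log2 change over the 4 pairs was over 1 in 230 members and a decrease of over 1 in 12, and its 5th to 95th percentile ran from −0.43 to 0.84. Because each member had to keep a peak in all RNH1 lists, a region that lost its peak could not enter. At EGFLAM (chr5:38289186-38289737), which encodes an extracellular matrix protein of synapses, fold enrichment was 14.4 and 15.1 in WT UNT, 5.72 and 7.25 in WT RNH1, 12.3 and 12.1 in MT UNT and 5.86 and 4.50 in MT RNH1, a mean change of −1.23 ± 0.19 (SD, n = 4 pairs). In an intron of the lncRNA gene LINC01482 (chr17:68732705-68733627) it was 7.20 and 8.37, 3.43 and 4.62, 7.12 and 6.84, and 2.84 and 3.22, a change of −1.08 ± 0.19. Treatments were apart in both genotypes at both regions.

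At SNHG16 (chr17:76623652-76624470), a host gene of small nucleolar RNAs, fold enrichment was 13.6 and 12.6 in WT UNT, 9.16 and 9.45 in WT RNH1, 12.4 and 11.6 in MT UNT and 4.26 and 3.38 in MT RNH1. Both RNH1 groups lay below their untreated groups, MT further than WT, with a mean of −1.08 ± 0.68 (SD, n = 4 pairs). The 2 other members of this set, chr6:95618932-95619614, 9461 bp from MANEA, and chr2:27423757-27425152, 2637 bp from NRBP1, had −1.09 ± 0.25 and −1.09 ± 0.45, and the latter had no base common to all lists.

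Over all members fold enrichment was slightly higher after RNH1. The median log2 change was 0.06 and 0.19 in the WT pairs and 0.38 and 0.23 in the MT pairs, with a mean of 0.22 ± 0.13 (SD, n = 4 pairs), against 0.01 and −0.01 in the WT pairs and 0.14 and 0.08 in the MT pairs for the other regions with both peaks. After division by the median of all peaks of each library it was 0.051 ± 0.15, with −0.16 and 0.08 in the WT pairs and 0.21 and 0.07 in the MT pairs, so its direction in the first WT pair turned with the scaling. In WT both RNH1 values lay above both untreated values in 4136 members (39.2%), against 36.8% of all regions with the 4 WT peaks, and below in 2062 (19.6%), against 23.7%. In MT they lay above in 6272 (59.5%), against 43.0%, and below in 1417 (13.4%), against 20.4%. The members are part of both backgrounds, 10539 of 19529 regions in WT and 10539 of 101510 in MT. The WT shares are thus drawn towards each other more than the MT shares. Both genotypes were above in 3171 members (30.1%) and both below in 627 (5.95%).

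The rule used peaks called from the same pileup and background as fold enrichment, so no test was made. The depth of the libraries moved with treatment: the background pileup was 2.99 and 3.13 in WT UNT, 1.62 and 2.17 in WT RNH1, 3.51 and 4.35 in MT UNT and 2.76 and 2.55 in MT RNH1. Its part in the change was not tested.

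Between genotypes the median difference was small, while single members differed in both directions. The median log2 difference, MT less WT, was 0.09 in untreated DNA against 0.15 in other regions, and 0.26 after RNH1 against 0.38. In untreated DNA both MT values lay above both WT values in 4335 members (41.1%), against 43.6% of all regions with the 4 untreated peaks, and below in 3173 (30.1%), against 26.4%. After RNH1 they lay above in 5437 (51.6%), against 53.9%, and below in 2033 (19.3%), against 18.8%. All 4 shares lay within 4 percentage points of the background. The members are part of that background, 10539 of 42800 regions in untreated DNA and 10539 of 18356 after RNH1. The closeness is therefore partly built in. The SD of the difference over members was 0.58 on the log2 scale in either treatment, against an SD between replicates of 0.19 in untreated and 0.23 in RNH1 libraries. The untreated difference followed base composition, from −0.13 in the 884 members with GC content under 33% to 0.18 in the 631 with at least 46%.

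Members were ordered most alike within a cell line. Across members, which are not independent and share base composition and depth within a library, Spearman's rho was 0.77 to 0.92 between replicates, 0.43 to 0.66 between treatments of a genotype, 0.26 to 0.42 between genotypes of a treatment, and 0.11 to 0.29 where both differed. Summit position, which the rule did not use, gave a like order in the plot of distances. The median distance between the summits of 2 libraries was 49 to 84 bp between replicates, 57 to 98 bp between treatments of a genotype, 91 to 113 bp between genotypes of a treatment and 99 to 116 bp where both differed. Distances averaged 106 bp between genotypes and 71.8 bp within them, a difference of 34.5 bp with p = 0.0286 in a two-sided exact permutation test over the 35 arrangements of the genotype labels, the smallest p these can give. Adjusted over the 2 such tests it was 0.0571. Between treatments the average was 92.3 bp and within them 90.5 bp, a difference of 1.81 bp with an exact permutation p = 0.943. Both averages pool pairs within and between genotypes in unlike shares, so this test cannot show whether summits moved with treatment inside a genotype. Within MT the distance was 54 and 49 bp between replicates and 57 to 67 bp between treatments. Within WT it was 73 and 84 bp against 80 to 98 bp, and neither contrast was tested. Each genotype is 1 line, so the genotype and the line or its preparation cannot be told apart.

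**Figure D4:**
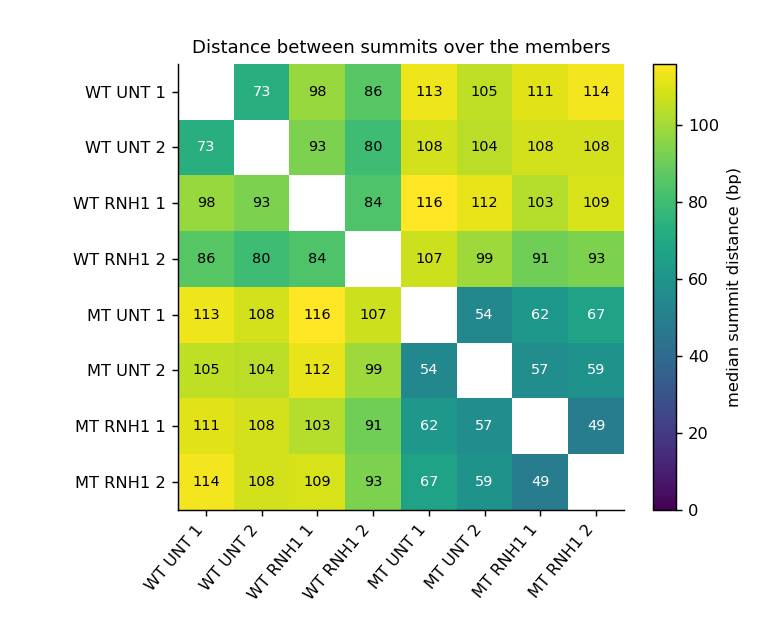
Median distance in bp between the summits of each pair of libraries over the 10539 members, printed in each cell and shown by colour from 0. The 2 blocks along the diagonal, WT with WT and MT with MT, hold 49 to 98 bp, and the cells between genotypes hold 91 to 116 bp.

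One hexamer was common near summits, and the sites of 4 of the 5 enzymes were scarce there. Of 2080 hexamers counted with their reverse complements, GAATTA had the largest excess, being present within 250 bp of the summit in 52.8% of members against 38.4% of all regions, 45.8% of regions with all 4 untreated and no RNH1 peak and 28.5% of regions found only after RNH1. The next hexamer, AGAGAA, had 59.2% against 52.2%. The share with GAATTA rose with the number of lists, from 32.9% at 1 list to 49.1% at 7. It shares its first 5 bases with the EcoRI site, GAATTC.

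In untreated libraries GAATTA occurred 1.11 times per kb within 50 bp of member summits, 1.59 times at 50 to 150 bp and 0.758 times at 1000 to 1500 bp, and in RNH1 libraries 1.13, 1.61 and 0.755 times. The EcoRI site occurred 0.109, 0.123 and 0.298 times and the SspI site (AATATT) 0.0299, 0.300 and 0.978 times at the same distances in untreated libraries. The HindIII site was not scarce, at 0.360, 0.286 and 0.2997 times. GAATTG, which also shares these 5 bases, was nearly flat, at 0.613, 0.588 and 0.610 times. In 7 of 8 libraries member peaks had 31.1% to 36.2% of their edges within 10 bp of a cutting site, against 26.6% to 28.8% for other peaks and 4.05% of the genome. In WT RNH1 replicate 1 the order was the opposite, with 28.3% against 29.3%.

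Members with GAATTA had higher fold enrichment in every library, for example 6.15 against 5.32 in WT UNT replicate 1 and 8.58 against 7.22 in MT RNH1 replicate 1. Members were 26.2% of regions with it and 23.1% of those without among regions with all 4 untreated peaks, while within each of the 5 classes of untreated fold enrichment the share was lower with it, for example 9.40% against 10.8% in the lowest and 46.2% against 48.1% in the highest.

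**Figure D5:**
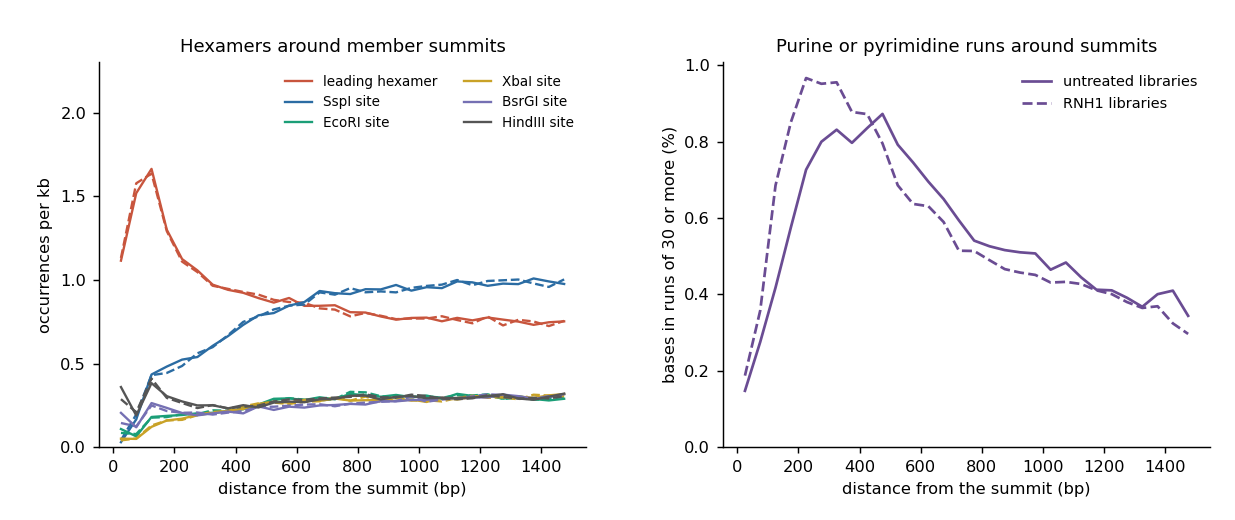
Left, occurrences per kb of the hexamer GAATTA (red) and of the 5 restriction sites by distance from member summits in bp, with untreated libraries as solid and RNH1 libraries as dashed lines, in which GAATTA is high and the EcoRI, XbaI, BsrGI and SspI sites are low near the summit. Right, the share of bases in purine or pyrimidine runs of 30 or more by distance, which is 0.148% within 50 bp of untreated summits and 0.187% within 50 bp of RNH1 summits and higher to the side.

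By annotation members were spread much like all regions. Promoters, taken as 3 kb to each side of a start, held 15.6% of members (95% Wilson interval, 14.9% to 16.3%) and 15.6% of all regions, introns 44.7% against 45.1%, intergenic sequence 35.8% against 35.5% and exons 2.42% against 2.17%. Regions with all 4 untreated and no RNH1 peak held 18.1% in promoters and regions found only after RNH1 14.5%. These classes were given by any shared base, and members were wider than all regions. By midpoint the order for exons turned, with 0.911% of members against 1.04% of all regions. GC content was lower in members, with a median of 38.6% against 40.2% for all regions, and the gap was smaller in a window of fixed width around the summit, with 39.3% against 39.9%. Chromosome X had 0.839 members per Mb against 2.05 (chromosome 19) to 4.33 (chromosome 4) on the autosomes, and 0.942% of its merged regions were members. Among regions with all 4 untreated peaks, however, 28.1% on X and 24.6% on the autosomes were members.

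Of 19970 protein-coding genes 2983 (14.9%) held a member, and of lncRNA genes 8.70%. The genes with the most members were very long: LRP1B, a lipoprotein receptor gene, held 16, LSAMP and MAGI2 held 13 each, CSMD3, DLG2 and NRXN3 12 each, CTNNA3 and MACROD2 11 each, and CSMD1 and HDAC9 10 each. Several encode adhesion or scaffold proteins of neurons. Per 100 kb these values were 0.486 (CSMD1) to 1.09 (HDAC9). Long genes at common fragile sites, which replicate late and break under replication stress, all held a member, 18 of 18 with 125 members, or 2.66% of their merged regions, against 292 of 322 protein-coding genes of at least 500 kb and 2.20% of their regions.

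Several short gene lists held no member, on few merged regions. No member lay in any of 7 usual control loci for DRIP, such as RPL13A and TFPT (6 merged regions), in 9 genes that the study took up by DRIP-qPCR or by qPCR of RNA bound to SERBP1 (111 regions) or in its 4 genes for RNA-binding proteins of R-loops (28 regions). With 2.20% of all merged regions being members, lists of this size would hold few or none. Of 20 B-lineage genes 5 held 6 members: PAX5, EBF1, BLNK and LEF1 had 1 each and BACH2 had 2, all genes of 82.4 kb or more.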

How the data were processed

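DRIP-seq peak lists of 8 Nalm-6 libraries were used, 2 in each of WT UNT, WT RNH1, MT UNT and MT RNH1. Per the methods, the authors mapped 50-bp single reads with BWA-MEM (GRCh38), discarded duplicates and reads of the mitochondrial genome, and used MACS2 for calling narrow peaks. Each library has its own deposited list; tool versions, and whether input DNA served as background, are not given in the sources used here. The deposited fold enrichment is a ratio of summit pileup over local background. The deposited lists also hold −log10 p-values and q-values of each peak, and the authors' peak caller gave a whole-number score. The methods name a q threshold of 0.05 and a paired-read option, but every listed q was 0.01 or lower. The lists hold no read totals, so depth was taken from the background pileup that fold enrichment and −log10 p imply, and intervals cover counting error only.

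Peaks on chromosomes 1 to 22 and X that shared a base were merged. The highest peak of a library stood for it in a region. Differences between treatments were log2 ratios within libraries of 1 genotype and number, summarised as the median over members and the mean ± SD of 4 pairs. The paper compared paired samples, treated and untreated, and divided the cut DNA before treatment. It does not state which libraries form such pairs, so pairing by number is a convention. Fold enrichment rests on the same pileup and background as the peak calls that chose the members, so it was not tested. Summit distances were compared by exact permutation over libraries, tested on simulated data first. Members and lists were chosen with earlier results of these data known. Regions were named by rank: highest lowest-of-8 value, highest mean, longest, largest decrease and increase after RNH1, and lowest value inside the rule; genes by number of members and by list. Some of the named regions and sequences are not reported here. Sequence features were counted in 501 bp around the median summit, on both strands, in GRCh38, and genes were those of GENCODE 44. A masked-repeat share had been planned but was not computed. The HEK293T splice table was not used here. Python 3.11.15, numpy 2.4.6, pandas 2.3.3, scipy 1.17.1 and matplotlib 3.10.9 were used.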

Additional observations from a re-analysis of the deposited data

Results flagged for a closer look

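In the 5 members with the period of alpha satellite fold enrichment was higher after RNH1 in WT and lower in MT. The median log2 difference, RNH1 less untreated, was 0.21 and 0.56 in the WT pairs and −0.15 and −0.41 in the MT pairs. The result was singled out because every WT pair lay above 0 and every MT pair below it, among 54 results screened in this way, and the difference between the genotypes was not tested. On summit pileup over the background of the library it was 0.33 and 0.56 in the WT pairs and −0.15 and −0.41 in the MT pairs. The local background at these members lay near that of the library, so these values largely repeat fold enrichment and add no separate evidence. Median pileups at these 5 summits were 31 and 24 in WT UNT, 27 and 27 in WT RNH1, 31 and 54 in MT UNT and 42 and 40 in MT RNH1.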

How the results depend on the processing

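The count of members moved to 6699 when peaks needed a fold enrichment of at least 4, and with 1 library left out it lay between 10721 and 18558, the highest without WT RNH1 replicate 1. It stayed within 1.5 times for a base common to all lists (9462), a −log10 q of at least 4 (8494), merging across 100 bp (10587) and no pentamer arrays (10452). The log2 difference between treatments was 0.051 when scaled to the median of all peaks, 0.34 on summit pileup over library background and 0.16 to 0.27 with a pair left out. Scaling also moved it to 0.49 for runs of at least 50, 0.01 for runs under 10 and −0.05 for pentamer arrays, the last reversed, and pileup over library background gave 1.41 for arrays, 1.20 for runs of at least 50 and 0.35 for runs under 10. Without WT RNH1 replicate 1 the share of members among regions with 4 untreated peaks moved from 24.6% to 43.4%. The genotype difference was 0.04 to 0.14 in untreated and 0.17 to 0.36 in RNH1 libraries with 1 library left out. Promoters held 7.15% of members against 6.64% of all regions within 1 kb of a start, and 13.2% against 14.4% by midpoint.

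Same-numbered libraries did not deviate together, with correlations of deviations from −0.02 to 0.06, so the pairs by number are a convention and were not taken as linked samples. Without the replicate block, from group means, the difference between treatments was 0.21. With a replicate block, the summit distance by genotype had an exact permutation p = 0.125 (adjusted 0.25), the smallest that 8 arrangements allow, and by treatment p = 1, so the call, not past 0.05 in either form, was the same.

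Limits are the shallowest library, which decides how many regions qualify, 2 libraries a group, and repeats, where the local background of the peak caller was high wherever the pileup was high.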

Other observations

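The densest protein-coding genes of at least 20 kb differed from those with the most members. SULT6B1, a sulfotransferase family gene, held 3 members, or 10.4 per 100 kb, followed by the zinc finger gene ZNF605 with 3 and, with 2 each, GIMAP1-GIMAP5, the overlapping GIMAP5 and GIMAP8, members of a family of GTPases of lymphocytes. Of 508 genes with a ZNF symbol and a number, 49 (9.65%) held 61 members, 1.89% of the merged regions in these genes, and 7 (1.38%) had 1 at their promoter. Over all protein-coding genes the same shares were 14.9%, 2.16% and 1.43%. Of 74 replication-dependent histone genes, which held 29 merged regions, 0 held a member. Of 81 genes of cytosolic ribosomal proteins 2 held 1 each, and 41 had a promoter region.

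The difference between treatments varied with GC content, but not alike in every pair. From members under 33% GC to those of at least 46%, the median log2 difference in fold enrichment, RNH1 less untreated, moved from 0.54 to 0.21 and from 0.31 to 0.07 in the MT pairs, and from 0.02 to 0.15 and from 0.21 to 0.18 in the WT pairs.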
